A study of Mus musculus with 16 samples.

Results

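The potassium channel genes of the mouse were described through the accessible chromatin that surrounds them in pancreatic islets of 8 inbred strains. The genes were the 90 protein-coding genes on chromosomes 1 to 19 (of 20807 there) whose symbol begins with Kcn, apart from Kcnj11 and Kcnq1, which the rule for choosing them left out. ATAC-seq, which marks open chromatin by letting a transposase insert sequencing adapters there, had been run on 16 samples: 1 female and 1 male of each of the classical strains 129S1_SvImJ (129), A_J (AJ), C57BL/6J (B6), NOD_ShiLtJ (NOD) and NZO_HlLtJ (NZO) and of the wild-derived strains CAST_EiJ (CAST), PWK_PhJ (PWK) and WSB_EiJ (WSB). All are inbred strains, the labels name no transgene and no treatment, and each sample held 50 islets. The age, the diet and the number of animals behind a sample were not given in the sources used here, so every p-value below measures the spread between these samples alone. Overlapping ATAC-seq peaks of the 16 samples were merged into 362076 regions, of which 1895 touched the body of a Kcn gene or the 3 kb before it. Of these 1895 regions, 220 (11.6%) were called in all 16 samples, against 11.7% of all regions, and only these 220 entered the tests of strain and sex.

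Potassium channels set the membrane potential of islet cells. In a beta cell, glucose metabolism closes ATP-sensitive channels, the membrane depolarises, calcium enters and insulin is released, and voltage-gated, calcium-activated and leak channels then shape or end each burst of action potentials. A channel is built from pore-forming alpha subunits, and auxiliary subunits change its gating, its calcium sensitivity or its transport to the membrane. The genes were read in 8 groups. Among them were the voltage-gated alpha subunits Kcna, Kcnb, Kcnc and Kcnd. The silent subunits Kcnf, Kcng, Kcns and Kcnv form no channel by themselves. Others were the Kcnq channels that carry the M-current and the Kcnh channels of the EAG, ERG and ELK type. Kcnu was counted in the group of the calcium- and sodium-activated channels Kcnma, Kcnn and Kcnt. The rest were the inward rectifiers Kcnj, the tandem-pore leak channels Kcnk and the auxiliary subunits Kcnab, Kcne, Kcnip, Kcnmb and Kcnrg.

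The sequences below are from 5 regions that set 1 strain apart or mark an islet channel. Each is the 200 bases centred on the summit of the strongest peak of the region, except for the last, a whole region of 135 bases. Each was read from the + strand of the B6 reference genome (GRCm38, called mm10, in the RefSeq copy), so that strain variants are not shown, and each is written in lower case with matches to the motifs described at the end in capitals. The first 3 belong to introns of genes where WSB (Kcnb2), CAST (Kcnq5) or PWK (Kcnip4) stood apart, the fourth to the region over the start of Kcnk16, a leak channel of beta cells, and the last to the strongest Kcn region called in 1 strain only. The Kcnk16 window lies inside the gene, whose 5′ end is at chr14:20269199, and does not reach that end.
Kcnb2 intron region 3 (chr1:15454340-15454539): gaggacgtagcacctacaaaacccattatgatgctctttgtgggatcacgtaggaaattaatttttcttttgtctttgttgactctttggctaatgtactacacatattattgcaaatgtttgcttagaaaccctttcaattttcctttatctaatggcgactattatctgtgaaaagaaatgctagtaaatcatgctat
Kcnq5 intron region 2 (chr1:21499918-21500117): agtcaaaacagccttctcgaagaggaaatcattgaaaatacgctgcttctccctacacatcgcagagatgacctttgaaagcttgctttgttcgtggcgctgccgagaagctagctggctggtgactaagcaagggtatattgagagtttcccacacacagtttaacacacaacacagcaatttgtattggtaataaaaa
Kcnip4 intron region 26 (chr5:49264372-49264571): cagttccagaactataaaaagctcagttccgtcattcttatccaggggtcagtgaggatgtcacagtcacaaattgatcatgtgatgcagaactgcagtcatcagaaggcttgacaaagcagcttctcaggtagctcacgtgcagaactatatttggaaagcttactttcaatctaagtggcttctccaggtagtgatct
Kcnk16 start (chr14:20267034-20267233): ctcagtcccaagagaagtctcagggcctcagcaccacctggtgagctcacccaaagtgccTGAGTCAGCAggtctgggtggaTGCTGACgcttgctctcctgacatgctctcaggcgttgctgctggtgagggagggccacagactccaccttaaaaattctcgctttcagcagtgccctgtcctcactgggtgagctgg
Kcnq5 intron at 21448914 (chr1:21448914-21449048): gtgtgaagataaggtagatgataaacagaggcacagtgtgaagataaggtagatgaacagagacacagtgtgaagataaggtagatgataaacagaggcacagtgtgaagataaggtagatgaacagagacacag

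The lists held between 80392 and 173735 peaks a sample, and read totals, and so the sequencing depth, are not part of them. The signal of a region was the deposited height at the peak summit divided by the median height over the 42427 regions called in all samples of the series, a median of 32 for the PWK male, the lowest, and of 136 for the CAST male, the highest. A scaled signal of 1 is therefore the typical height of a shared region in the same sample. Start-site regions of all 8 beta cell markers, among them Ins1, Ins2 and Pdx1, were called in all 16 samples, and those of 3 of 5 alpha cell markers were too, whereas neither delta cell marker was (Sst in 1 sample, Hhex in 10). Regions at the 6 leukocyte markers, which include Ptprc and Spi1, summed to a scaled signal of 2.00 in the NZO male, 0.119 in the B6 female and 0.111 in the NZO female, with none called in the other 13 samples and none in any sample at Cd3e. The NZO male also held the highest sums at acinar (2.31), duct (2.49) and endothelial markers (0.764), and the part of these cells in the results below was not tested. A bulk islet sample cannot tell fewer cells of a type from less accessible chromatin in each cell.

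A region within 1 kb of the start of an annotated coding transcript was called in all 16 samples for 42 of the 90 genes, in some samples for 30 and in none for 18. All 8 Kcnh genes and all 4 Kcnq genes had such a region in at least 1 sample. So did 14 of 16 Kcna to Kcnd genes and all 8 genes of the calcium- and sodium-activated group. The silent subunits had one in 5 of 10 genes and the inward rectifiers in 10 of 14. No region in any sample was found for 8 genes (Kcns2, Kcnk7, Kcne4, Kcng4, Kcns1, Kcnrg, Kcnj14 and Kcnk15). A peak that is absent from a list is a peak under the threshold of the authors and not a measurement of closed chromatin. The same counts were not made over all protein-coding genes. They therefore do not show whether starts of Kcn genes were called more or less often than those of other genes.

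Start sites differed widely in height, and the tallest had medians far above 1. Kcnb2, a delayed rectifier alpha subunit, had a median scaled signal of 9.82 over the 16 samples (lowest 4.85, highest 13.5). Kcnh8, an ELK channel, had 9.33 (6.20 to 14.9). Kcnn2, a small-conductance calcium-activated channel, had 6.04 (3.5 to 10.2). These starts stood well above the median of 1 of a shared region in every sample. Kcnip4, a calcium-binding partner of Kcnd channels, had 4.41 (3.15 to 5.60). In all, 29 of the 42 genes had a median above 1 at their strongest start region. The share over all genes with such a start was not counted. At the low end stood Kcnk5 with 0.425 (0.219 to 1.33) and Kcna5 with 0.628 (0.145 to 1.10).

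**Figure D1:**
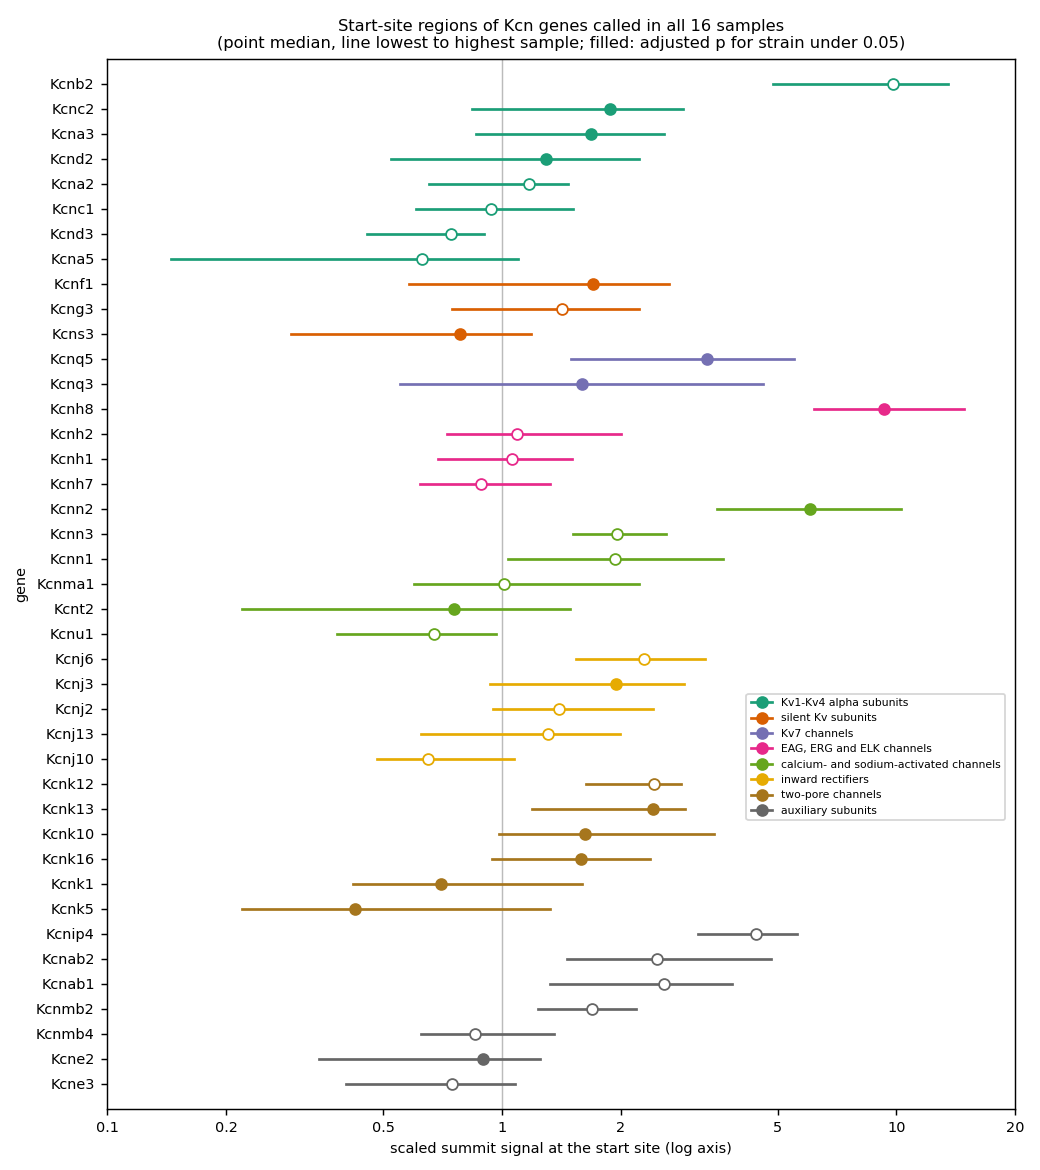
The strongest start-site region of 41 Kcn genes with such a region in all 16 samples, with the scaled summit signal on a log axis; the point is the median, the line runs from the lowest to the highest sample and a filled point marks an adjusted p for strain under 0.05. Kcnb2 and Kcnh8 had the highest medians (9.82 and 9.33), and 17 of the 41 points are filled, among them 5 of 6 tandem-pore channels and both Kcnq channels. The filled points of Kcnk1, Kcnk16 and Kcnn2 lay at the threshold (adjusted p for strain 0.0490, 0.0482 and 0.0477).

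For each region, limma's moderated F test gave the strain effect on log2 signals with sex in the model, and p-values were adjusted by the Benjamini-Hochberg method over all 42427 regions. Over all regions of the series 34.9% had an adjusted p under 0.05. Of the regions within 1 kb of any protein-coding start 21.7% passed, and of those elsewhere in a protein-coding gene 39.2% passed. Of the 220 Kcn regions, 101 (45.9%) passed, in 34 genes. These were 22 of 51 start regions (43.1%) and 78 of 164 regions elsewhere in a Kcn gene (47.6%), with 1 of 5 before the gene. The ratio of the highest to the lowest strain mean had a median of 2.28 over the Kcn regions (1.17 to 10.5), beside 2.17 over all shared regions. The share with a strain effect was higher in Kcn regions than in all regions under every alternative that gave both shares. It was 53.2% against 34.8% with the stricter peak lists, 54.5% against 40.9% with a pseudocount of 10 and 52.3% against 38.4% without the sex term. The difference between these shares was not tested, and it was narrowest in the cases that follow. With the deposited mean signal in place of the summit height, the shares were 29.1% of the Kcn regions and 27.2% of all, and without the CAST female they were 19.1% and 18.3%. Leaving out 1 sample at a time, the count of 101 became 42 without the CAST female, 50 without the CAST male, 60 without the WSB male, 62 without the WSB female and 66 without the NOD female, and it stayed within 1.5 times 101 without any of the other samples.

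The share of regions with a strain effect was highest for Kcnq and lowest for Kcnj genes. Over all regions of the series it was 34.9%, and 39.2% for those in a protein-coding gene away from its start. The effect was found in 10 of 15 shared regions of Kcnq genes (66.7%), 9 of 14 of tandem-pore channels (64.3%), 10 of 17 of Kcnh genes (58.8%) and 38 of 75 of auxiliary subunits (50.7%). It was found in 2 of 4 of silent subunits (50%) and 13 of 34 of the calcium- and sodium-activated group (38.2%). For Kcna to Kcnd genes it was 16 of 43 (37.2%) and for inward rectifiers 3 of 18 (16.7%). Regions of 1 gene share that gene, and the difference between the groups was not tested.

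Of all regions within 1 kb of a protein-coding start, 21.7% had a strain effect. At the strongest start region of each gene it was found for 17 of the 42 Kcn genes. CAST had the lowest strain mean in 8 of these 17 and NOD had the highest in 8. Of the 2450 regions with a strain effect within 1 kb of any protein-coding start, CAST was the lowest in 25.3% and NOD the highest in 15.8%. The Kcnq3 start (chr15:66284363-66287506) had the widest range. Kcnq3 encodes a subunit of the M-current channel. Its scaled signals in female and male were 4.42 and 4.59 in NOD, 3.18 and 4.44 in AJ, 2.76 and 4.28 in PWK, 1.76 and 2.05 in CAST, 1.24 and 1.11 in B6, 1.04 and 1.07 in WSB, 1.43 and 0.691 in NZO and 0.552 and 1.07 in 129. NOD, AJ and PWK lay above every sample of the other 5 strains (adjusted p = 0.000862). This was also the largest called difference of NOD from the other 7 strains, a log2 difference of 1.51 ± 0.28 (SE) with an adjusted p of 0.0119, which was 0.298 without the NOD female, 0.219 without the NOD male and 0.058 without centring. The start of Kcnq5, which encodes another M-current subunit, read 5.49 and 5.20 in NOD and 1.5 and 1.84 in CAST, with the other 6 strains between 2.64 and 4.56 (adjusted p = 0.00840). CAST was lower than the mean of the other 7 strains by a log2 difference of -1.08 ± 0.19 (SE).

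Among the voltage-gated alpha subunits, the start of Kcnd2, which encodes an A-type channel, read 0.524 and 0.684 in CAST and between 0.836 and 2.22 in the other strains (adjusted p = 0.00318). The start of Kcnc2, a fast-deactivating channel, read 0.838 and 1.15 in CAST and 2.85 and 2.87 in AJ (adjusted p = 0.0123). CAST and the male NZO sample (1.09) were the lowest there. At the start of the silent subunit Kcns3 both WSB samples (0.292 and 0.330) lay below the other 14, which ran from 0.5 to 1.19 (adjusted p = 0.00347). At Kcnt2, a sodium-activated channel, the CAST samples (0.219 and 0.309) were again the lowest, and the highest was the NZO male (1.49), far from the NZO female (0.432) (adjusted p = 0.0205).

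The tandem-pore channels gave 5 called starts of 6, most of them sensitive to the processing. Of the alternatives described at the end, 18 changed the Kcnk1 call or could not test it. For Kcnk16 this number was 15, for Kcnk5 10 and for Kcnk10 6. The Kcnk13 start was not among the regions followed through the alternatives. At Kcnk13 CAST (1.19 and 1.25) lay below every other sample (1.53 to 2.91), with a log2 difference of -0.88 ± 0.16 (SE) and an adjusted p for strain of 0.00594. At Kcnk10, both 129 samples (0.983 and 1.01) lay below the other 14 (1.39 to 3.45), a log2 difference of -0.92 ± 0.22 (SE), with an adjusted p for strain of 0.0235 that was 0.0678 without the 129 female and 0.0555 without the 129 male. At Kcnk5 CAST (0.219 and 0.221) was the lowest strain and the NZO male (1.33) the highest sample, against 0.432 in the NZO female (adjusted p = 0.0281). This male held the highest sums at leukocyte, acinar and duct markers, and the part of these cells in its Kcnk5 value was not tested. The start of Kcnk16 (chr14:20265260-20269970), whose leak current limits calcium entry in beta cells, read 2.14 and 2.38 in WSB, 1.72 and 2.17 in 129, 1.68 and 2.01 in B6, 1.60 and 2.05 in NZO, 1.57 and 1.44 in NOD, 1.31 and 1.41 in PWK, 1.21 and 1.35 in CAST and 1.31 and 0.945 in AJ. WSB was the highest strain and AJ the lowest, but WSB overlapped 129, and AJ overlapped CAST. This region spans the 5′ end of the gene, but the summit of its strongest peak lay inside the gene. Its adjusted p for strain of 0.0482 lay at the threshold, no single strain was called against the others, and with the deposited mean signal it was 0.492. Kcnk1 (0.0490) lay as close to the threshold and was 0.120 with the mean signal.

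Other channels of islet cells had open starts in all strains. At Kcnj3, a subunit of G-protein-gated channels, PWK (0.935 and 1.06) and CAST (0.981 and 1.43) read lower than the other strains (1.38 to 2.89), and only the CAST male and the B6 female (1.38) overlapped (adjusted p = 0.00902). The adjusted p was 0.0995 with the mean signal. The Kcnn2 start read 3.5 and 4.63 in CAST and 8.76 and 10.2 in NOD (adjusted p = 0.0477). This call also lay at the threshold and was lost under 15 alternatives, among them no centring (0.0631), quantile normalization (0.113) and either NOD sample left out (0.113 and 0.127). The starts of Kcnb2 (adjusted p = 0.0680), Kcnn1 (0.0549), Kcnab1 (0.0553), Kcnc1 (0.0980), Kcnma1 (0.127), Kcnh2 (0.213), Kcnj6 (0.257), Kcnn3 (0.541) and Kcna2 (0.568) did not pass the test, which does not show that their strains were alike. Those of Kcnn1, Kcnab1 and Kcnb2 lay near the threshold and passed under 11, 9 and 5 of the alternatives.

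Some starts of channels with a known islet role were called in part of the samples only. The start of Kcnj5, the partner of Kcnj3, read 1.11 and 1.04 in CAST and 0.903 and 1.09 in PWK, between 0.277 and 0.509 in 9 other samples, and was missing in both NZO samples and the 129 female. CAST and PWK were thus the highest at Kcnj5 and the lowest at Kcnj3. The start of the coding transcripts of Kcnip1 was called in 10 samples and read highest in CAST (0.943 and 1.01). Starts of Kcnk3 (5 samples) and Kcnh6 (3) were called in both CAST samples, and that of Kcnk3 in both WSB samples as well. Kcnn4, the calcium-activated channel of lymphocytes and red cells, had a start region in 2 samples, the NZO male (0.927) and the B6 male (0.289). The leukocyte marker regions summed to 2.00 in the NZO male and to 0 in the B6 male. The part of leukocytes in the Kcnn4 values was not tested. The start of Kcnj8, the vascular ATP-sensitive channel, was called in CAST (0.210 and 0.235), WSB (0.160 and 0.148) and the NZO male (0.382). The number of samples with a call moves with the length of their lists, which is longest in WSB, CAST and the PWK and NZO males.

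Each strain was then compared with the mean of the other 7, and CAST had the most calls of the 8 strains. CAST was higher at 24 regions (10.9%; 6.79% of all regions) and lower at 37 (16.8%; 13.4% of all). PWK was higher at 8 (3.64%; 5.16% of all) and lower at 17 (7.73%; 5.69% of all). NZO was higher at 0 (2.22% of all) and lower at 12 (5.45%; 2.83% of all). The 0 depended on the processing: NZO was higher at 5 and lower at 16 with centring within GC bins. For regions called in at least 12 samples it was higher at 6 and lower at 12. AJ was higher at 9 and lower at 9 (4.09% each; 3.58% and 3.01% of all), and WSB higher at 7 and lower at 7 (3.18% each; 2.56% and 3.08% of all). 129 was higher at 2 (0.909%; 0.957% of all) and lower at 7 (3.18%; 2.01% of all). NOD was higher at 3 (1.36%; 1.64% of all) and lower at 4 (1.82%; 1.32% of all), and B6 higher and lower at 2 each (0.909%; 1.37% and 1.59% of all). NZO was also the strain with the lowest mean at 52 of the 220 regions, 23.6% against 14.4% over all shared regions, and with the highest mean at 16 (7.27% against 12.5%). The low NZO values came more from the male, the sample with the leukocyte marker regions. It was the lowest of the 8 males at 74 regions (33.6% against 23.3% over all shared regions). The NZO female was the lowest of the 8 females at 24 (10.9% against 9.48%). A fit with 1 NZO sample left out rests on the other alone and cannot decide which of them carried the NZO calls. The part of leukocytes in the NZO values was not tested. CAST was the highest strain at 44 regions (20% against 14.0%). These directions are relative to the median of each sample. Without centring on it, the median log2 difference from the other 7 strains over all shared regions was 0.764 in CAST and -0.802 in PWK, and the Kcn calls were 99 higher and 6 lower in CAST, 0 higher and 122 lower in PWK, 1 higher and 14 lower in AJ, 8 higher and 0 lower in WSB and 0 in the other 4 strains.

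**Figure D2:**
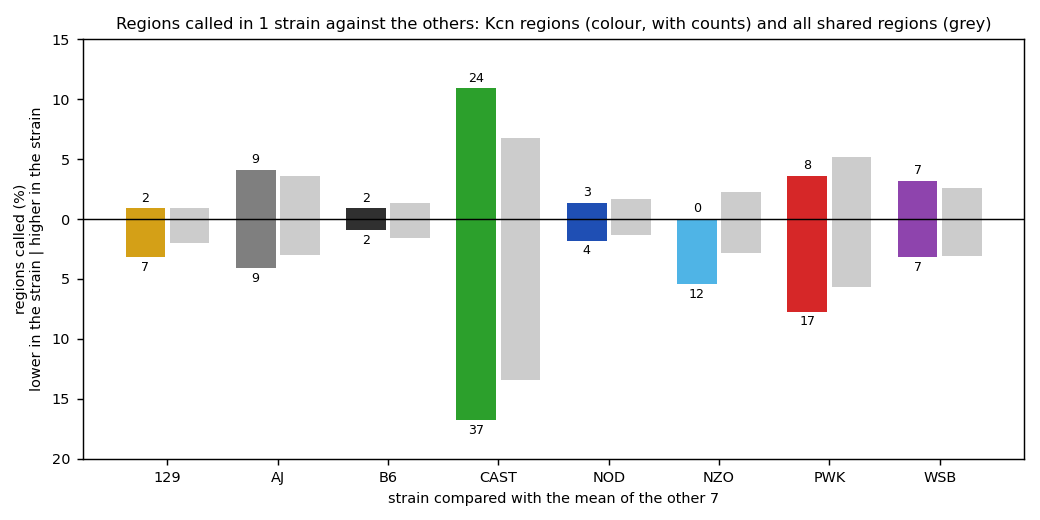
Share of regions, in percent, called higher (upward bars) or lower (downward bars) in 1 strain against the mean of the other 7; coloured bars stand for the 220 Kcn regions, with their counts, and grey bars for all 42427 shared regions. CAST has the longest bars in both directions (24 higher and 37 lower), and NZO has none upward and 12 downward.

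Same-strain samples repeated each other to different degrees. Over the 220 Kcn regions, the Pearson correlation between the deviations of the female and the male from the mean of all samples was 0.90 in CAST, 0.82 in WSB, 0.68 in NOD, 0.55 in AJ, 0.46 in 129, 0.37 in PWK, 0.33 in NZO and 0.07 in B6. Across strains it ran from -0.47 to 0.35, with a median of -0.12. These correlations are across regions, share the depth of each library and describe the samples only.

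The smallest adjusted p of all Kcn regions lay in an intron of Kcnq5, region 2 (chr1:21499460-21500598), whose sequence is given above. It read 0.0857 and 0.110 in CAST, 0.293 and 0.304 in 129, 0.345 and 0.771 in B6, 0.600 and 0.618 in AJ, 0.547 and 0.646 in NOD, 0.753 and 0.873 in NZO, 0.745 and 0.955 in WSB and 1.31 and 0.750 in PWK. CAST lay below every other sample and 129 next (adjusted p for strain = 0.000305). The log2 difference of CAST from the other strains was -2.59 ± 0.25 (SE). With the stricter lists described at the end the region was not called in every sample and could not be tested.

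In Kcnb2, WSB stood alone. Intron region 3 (chr1:15453696-15455108), 142 kb from the nearest annotated start, read 4.12 and 3.85 in WSB and between 0.448 and 1.55 in the other 14 samples, with a log2 difference of 2.3 ± 0.25 (SE) for WSB and an adjusted p for strain of 0.000838. The neighbouring intron region 2 (chr1:15445600-15447599) read 1.11 and 1.12 in WSB and between 0.181 and 0.542 elsewhere, a log2 difference of 1.67 ± 0.20 (SE) (adjusted p for strain = 0.00150). Neither WSB sample overlapped any other at either region, whereas at the Kcnb2 start the WSB samples (6.88 and 7.86) lay within the range of the others (4.85 to 13.5). The printed window of region 3 had a GC content of 34.0% and no match to the motifs searched.

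Kcnab1, which encodes a cytoplasmic beta subunit of Kcna channels, held regions with opposite patterns in CAST. Intron region 1 (chr3:65121659-65122878) read 2.27 and 3.64 in CAST and between 0.2 and 0.884 in the others, a log2 difference of 2.41 ± 0.29 (SE) for CAST (adjusted p for strain = 0.00142). A region over an exon (chr3:65296654-65297691) read 0.352 and 0.404 in CAST and 0.552 and 0.580 in 129, against 2.78 and 2.61 in WSB and 1.02 to 2.90 in the remaining strains (adjusted p = 0.00124). CAST was thus the highest strain at the one and the lowest at the other.

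The remaining regions with the smallest adjusted p joined several strains. Intron region 4 of Kcnn3, a small-conductance calcium-activated channel (chr3:89578245-89579535), read 2.35 and 1.75 in PWK, 1.88 and 2.15 in CAST, 1.5 and 1.63 in NOD, 1.23 and 1.2 in NZO, 0.738 and 1.14 in B6, 0.877 and 0.898 in WSB, 0.585 and 0.582 in AJ and 0.414 and 0.551 in 129 (adjusted p = 0.000473). The strains formed a graded series there, in which no neighbouring pair was tested. Intron region 1 of Kcnh8 (chr17:52650703-52652129) read 3.06 and 3.46 in B6, with 0.610 and 0.662 in CAST and 1.02 and 0.625 in PWK at the low end (adjusted p = 0.00109). A region over an exon of Kcnip4 (chr5:48509018-48510539) read 0.296 and 0.273 in NZO, 0.306 and 0.375 in PWK and 0.321 and 0.182 in WSB, and 0.429 to 0.982 in the other 5 strains (adjusted p = 0.00139). Intron region 5 of Kcnq3 (chr15:66238856-66240277) read highest in CAST (1.86 and 2.08) and lowest in 129 (0.5 and 0.449) and B6 (0.595 and 0.542; adjusted p = 0.00192), whereas NOD was the highest strain at the start of the same gene.

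**Figure D3:**
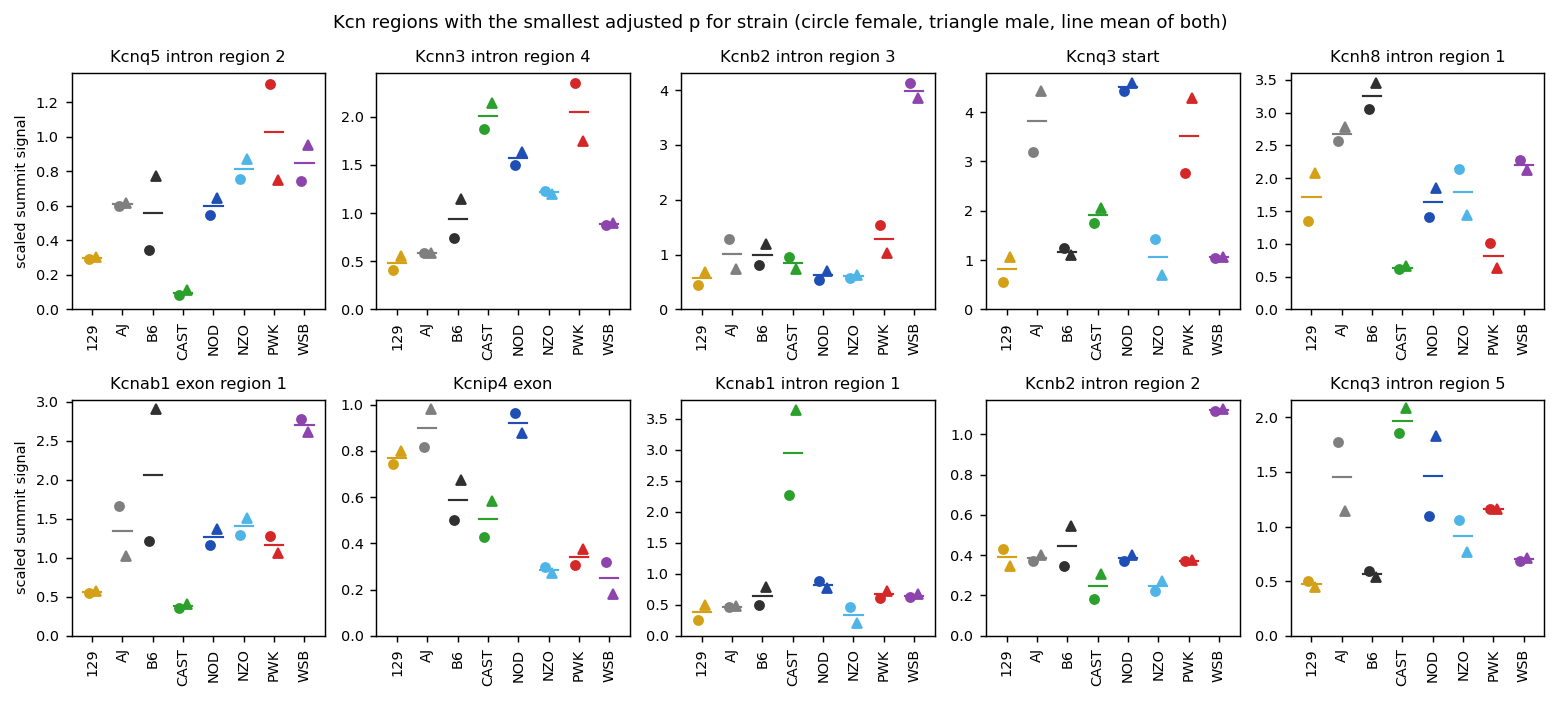
Scaled summit signal per sample at the 10 Kcn regions with the smallest adjusted p for strain, at most 2 a gene; circles are females, triangles males and the line is the mean of both. WSB stands alone at both Kcnb2 regions (4.12 and 3.85 at region 3), CAST is the highest at Kcnab1 intron region 1 (2.27 and 3.64) and the lowest at Kcnq5 intron region 2 (0.0857 and 0.110).

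The largest called differences of PWK, AJ, NZO and 129 lay in introns of Kcnip4 and Kcnh8. PWK read 0.290 and 0.5 at intron region 26 of Kcnip4 (chr5:49263200-49264883), and the other 14 samples 0.948 to 3.16. This is a log2 difference of -2.23 ± 0.29 (SE), and it left no overlap between PWK and the others (adjusted p for strain = 0.00272). AJ read 0.938 and 1.62 at intron region 2 of Kcnh8 (chr17:52660337-52661799), and the others at most 0.581, a log2 difference of 1.89 ± 0.30 (SE) with an adjusted p of 0.00713 for the contrast and of 0.189 without the AJ male. NZO read 0.790 and 0.291 at intron region 5 of Kcnh8 (chr17:52807184-52808733), a log2 difference of -1.73 ± 0.36 (SE) with an adjusted p of 0.0205 for the contrast. That adjusted p was 0.121 without centring and 0.0626 with regions called in at least 12 samples, and the call was lost without the NZO male. For 129 the largest was intron region 4 of Kcnip4 (chr5:48571651-48572817; 0.155 and 0.275), a log2 difference of -1.96 ± 0.48 (SE) with an adjusted p of 0.0453 for the contrast. This call lay at the threshold. The adjusted p was 0.0807 without centring, 0.0688 with the mean signal and 0.107 with regions called in at least 12 samples. The call was also lost without either sample of 129, CAST, NOD or WSB and without the PWK female. For the strain test of this region (adjusted p = 0.0269), 8 alternatives changed the call or could not test it.

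Long genes hold many regions, and their regions differed in which strain stood apart. For the counts that follow, a strain effect was found in 34.9% of all shared regions. Over these, CAST was called higher in 6.79% and lower in 13.4% and PWK lower in 5.69%. The lowest mean over all shared regions was in CAST in 20.6%, NZO in 14.4% and AJ in 14.4%, and the highest in CAST in 14.0% and 129 in 15.4%. Regions of 1 gene are neighbours, so these shares are a background and not a test. Kcnip1, another calcium-binding partner of Kcnd channels, had a strain effect in 13 of 14 shared regions, all but the one over the 5′ end of the gene, where transcripts not annotated as coding begin. CAST was called higher in 7 of the 14 and lower in 2, and PWK lower in 6. At its intron region 5 the NOD samples (1.43 and 1.74) were the lowest and the others lay between 1.94 and 5.07, a log2 difference of -1.2 ± 0.19 (SE). Another 8 of the 104 regions at Kcnip1, none of them called in all samples, also lay at Kcnmb1, which encodes a beta subunit of the Kcnma1 channel, and cannot be assigned to either gene. Kcnip4 had a strain effect in 16 of 34 shared regions, and NZO had the lowest mean in 16 of the 34, with the NZO male the lowest male in 17 and the NZO female the lowest female in 7. Its strongest region, intron region 11, read 4.55 to 12.9 and did not pass the test (adjusted p = 0.0614). At its start region 3, CAST read 0.476 and 0.5, a log2 difference of -1.44 ± 0.18 (SE).

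Kcnq5 had a strain effect in 5 of 7 shared regions, with CAST the lowest strain in 6 and called lower in 4, the start included. At its intron region 5 CAST read 0.448 and 0.478, a log2 difference of -2.01 ± 0.34 (SE). Kcnma1, the pore of the large-conductance calcium-activated channel, had a strain effect in 6 of 15 regions. CAST was called higher in 5 and AJ had the lowest mean in 10 of the 15. Kcnh8 had a strain effect in 6 of 7 regions, its start included, which read 14.3 and 14.8 in AJ, 14.9 and 14.0 in NOD and 8.21 and 6.20 in NZO. In Kcnn3 CAST had the highest mean in 5 of 6 regions and in Kcnmb2, another such beta subunit, 129 had the highest in 6 of 10.

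**Figure D4:**
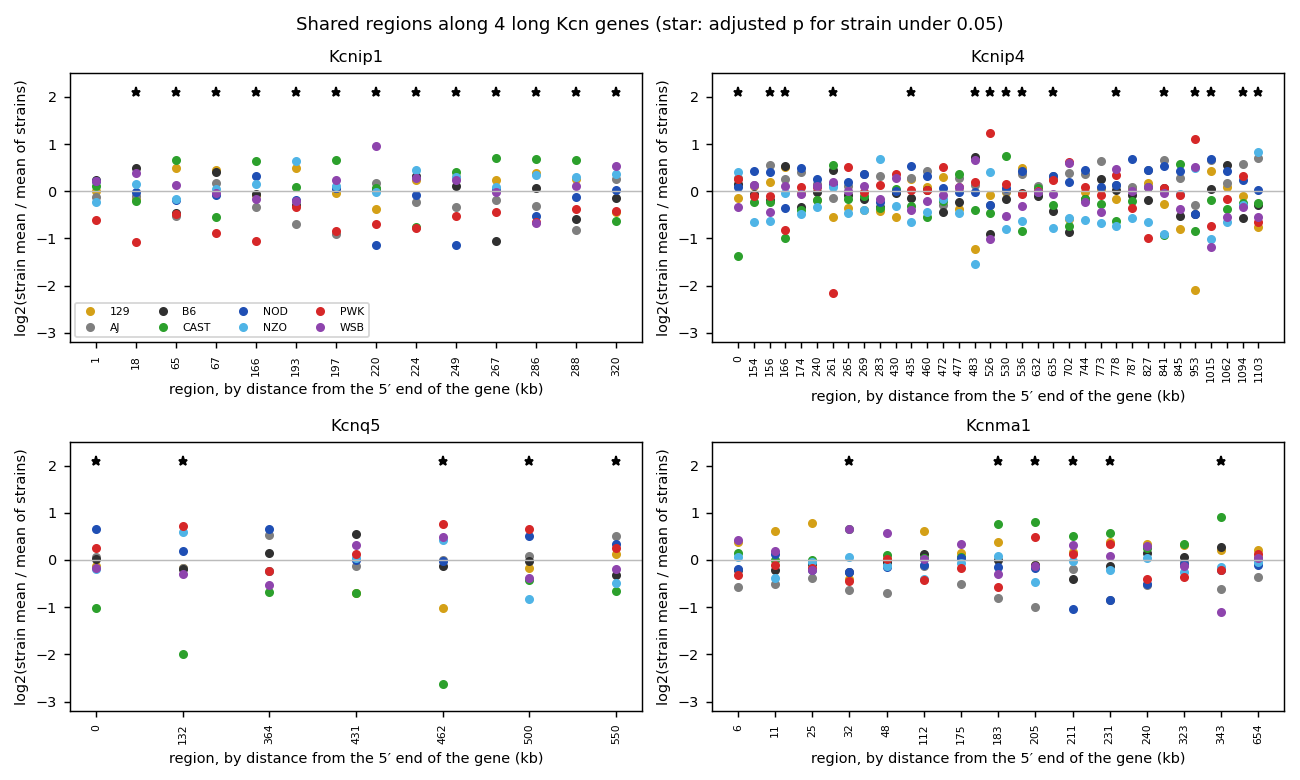
Strain means of the scaled signal at each shared region of 4 long Kcn genes, as log2 of their ratio to the mean of the 8 strains, with regions in order of their distance in kb from the 5′ end of the gene; a star marks an adjusted p for strain under 0.05. CAST lies lowest along most of Kcnq5 (6 of 7 regions) and high along Kcnip1 (called higher in 7 of 14) and Kcnma1 (called higher in 5 of 15).

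No Kcn region passed the test for sex. Over all regions 0.00943% were higher and 0% lower in females by limma's moderated test, and 0 of 220 Kcn regions were called, with 17 (7.73%) at an unadjusted p under 0.05 against 4.07% of all regions. The smallest p was at exon region 2 of Kcnab1, where females averaged 0.398 ± 0.077 (SD, n = 8) and males 0.585 ± 0.100 (SD, n = 8), with the female lower in 7 of 8 strains and a log2 difference of -0.55 ± 0.14 (SE; adjusted p = 0.999). No Kcn region was called between wild-derived and classical strains either, with strain means as the unit: 0 of 220, with 24 (10.9%) at an unadjusted p under 0.05 against 12.2% of all regions. Over all regions 0.00707% were called higher and 0.0259% lower in wild-derived strains. The smallest p was at intron region 4 of Kcnq3 (chr15:66183031-66183799), which averaged 0.976 ± 0.146 (SD, n = 3) in wild-derived and 0.356 ± 0.139 (SD, n = 5) in classical strains, a log2 difference of 1.60 ± 0.29 (SE; adjusted p = 0.113). The 2 classes did not overlap there in their strain means, but the region was picked for its smallest p, so this adds nothing to the test.

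Regions called in both samples of 1 strain and in no other sample made up 74 of the 1895 Kcn regions (3.91%), against 4.5% of all regions. CAST gave 33 (1.74%; 1.77% of all), WSB 21 (1.11%; 1% of all), NZO 14 (0.739%; 0.351% of all), PWK 4 (0.211%; 1.09% of all) and B6 2 (0.106%; 0.111% of all). The strains 129, AJ and NOD gave 0, where 0.0508%, 0.061% and 0.0638% of all regions were called in them alone. These regions were narrow (median width 204 bases, against 1101 for shared Kcn regions) and low, with a median scaled signal of 0.190, and 17 of the 74 were in the reproducible peak list of their strain, 10 in CAST, 6 in WSB and 1 in PWK. The strongest was the Kcnq5 intron region of 135 bases in PWK (0.677 and 1.03). Its reference sequence, given above, repeats itself at a shift of 67 bases, with 68 of 68 bases identical, and 61.5% of it is soft-masked as repeat. The other 7 of the 8 strongest repeated themselves at 30.6% to 34.9% of the bases at their best shift. More than 50% of the sequence was soft-masked in 13 of the 74 (17.6%), in 24.8% of all regions called in 1 strain only and in 2 of the 220 shared Kcn regions (0.909%).

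Of the 14 regions called in NZO alone, 11 lay in Kcnq5. Kcnq5 held 80 called regions in the NZO female and 81 in the NZO male, against 12 to 54 in the other 14 samples, of which the PWK male had the most and the next 36. Only regions of Kcnq5 were counted, so the sequence on either side of the gene was not examined. Within the gene, the excess lay between 100 and 400 kb from the 5′ end. Between 200 and 300 kb from its 5′ end the NZO samples had 31 and 26 regions and the others 1 to 11, and between 100 and 200 kb 19 and 20 against 1 to 10. Beyond 400 kb they had 7 and 7 against 3 to 9 in the window to 500 kb, within the range of the other strains. The regions called in NZO alone were weak (0.0727 to 0.400), and with the stricter lists, which keep the more significant 50% of the peaks of each sample, Kcnq5 held 12 and 12 regions in NZO and 5 to 15 in the others. With equal numbers of peaks a sample the counts were 19 and 14 against 8 to 24. The number of copies of this interval in NZO was not measured, so extra copies and more open chromatin cannot be told apart. At the 2 regions between 100 and 400 kb that were called in all samples, the NZO mean lay within those of the other strains, with 0.331 at intron region 4 (0.244 to 0.619) and 2.76 at intron region 5 (0.463 to 3.03). Of the 20 Kcn genes with at least 20 regions, Kcnq5 was the only one where both NZO samples exceeded all others, and the nearest case in another gene was WSB at Kcnd3 (19 and 23 regions against 7 to 16).

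**Figure D5:**
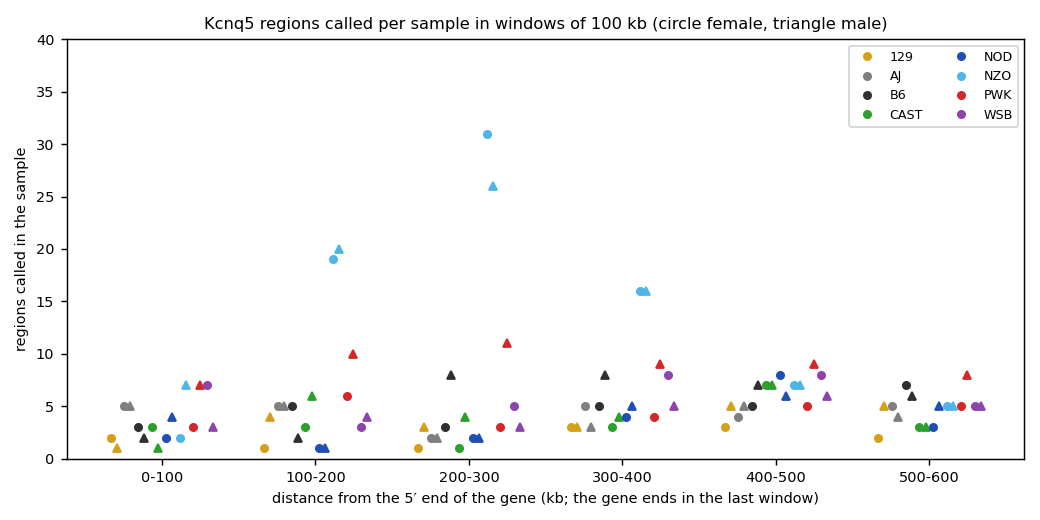
Number of called regions per sample in windows of 100 kb along Kcnq5, counted from its 5′ end, with a circle for each female and a triangle for each male, coloured by strain. The NZO samples lie apart between 100 and 400 kb (31 and 26 regions in the window from 200 kb, against 1 to 11 in the others) and among the other strains beyond 400 kb.

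Short motifs of islet transcription factors were counted in the 200 bases around the summit, on both strands, in all 42427 shared regions and in the 220 Kcn regions. The E-box CAGATGG bound by NEUROD factors was in 10% of the Kcn windows and 7.65% of all. The AP-1 motif TGANTCA was in 13.2% and 13.4%, the FOXA motif TGTTTAC in 5.91% and 6.27%, the homeodomain motif TAATTA in 5.91% and 5.78% and the MAF motif TGCTGAC in 5.91% and 5.21%. The cAMP response element TGACGTCA was in 0.455% (1 window) and 1.39%, and TTCAGCACC, a part of the REST motif, in 0.455% and 0.273%. The Kcnk16 window, which lies inside the gene, held an AP-1 match at base 61, which overlaps a MAF match at base 64, and another MAF match at base 83. A match of letters describes the B6 reference only, and binding of a factor was not measured.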

How the data were processed

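As the study's methods state, islet ATAC-seq reads were trimmed by the authors (cutadapt 2.0), aligned to mm10 for every strain (Bowtie2 2.3.4.1) and freed of mitochondrial and duplicate reads (SAMtools; Picard 2.9.2), and peaks were called per sample (MOSAiCS, false discovery rate 0.05); libraries had 12 amplification cycles. A shift for the transposase cut was not stated, and the alignments to strain-specific genomes with which the study examined reference bias were not used here. The deposited lists give a summit signal (whole numbers, not scaled to depth), a mean signal whose window is not stated, and the −log10 p-value of each peak. The deposited strain lists give the −log10 of the irreproducible discovery rate (IDR), used at 0.05.

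Peaks that overlap or touch were merged (Python 3.11.15, pandas 2.3.3) and genes taken from GENCODE mm10. A region took the highest summit signal of each sample. Regions called in all 16 samples were tested with limma 3.58.1 (R 4.3.3) on log2(signal + 1), centred per sample on the median, with strain and sex as terms; folds on this scale understate changes at low signals. Calls had a Benjamini-Hochberg adjusted p under 0.05 over all 42427 regions, within each contrast. Summit signal is no read count, so no count test was run. Strain and sex came from the labels, the strain classes from the study. The fit was tested on simulated data. Alternatives were another pseudocount, other centring and filters, the mean signal, stricter or equal-sized peak lists and each sample left out.

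Named regions were the 10 with the smallest adjusted p (at most 2 a gene), the largest called difference of each strain, the smallest p for class and sex, the 8 strongest regions called in 1 strain only and the starts of 24 channels with islet roles. Other regions named, and the counts along Kcnq5, were picked with their values in view. The members and lists were chosen with earlier results of these data known. Some genes of these lists are not reported here. No columns of other series were present.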

Additional observations from a re-analysis of the deposited data

Results flagged for a closer look

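Among the named Kcn regions, each set of the 8 females or the 8 males was searched for a sample far from the rest, by the gap from the extreme sample to its nearest neighbour over the range of the set, set against Dixon's critical value for 8 samples. Of 66 sets, 10 passed. Chance passes about 1 set in 20 where sets are chosen without regard to their values, but most of these regions were named for strain differences in the same values, so the count cannot be read against that rate. WSB was the highest at Kcnb2 intron region 3, with 4.12 against 1.55 in the next female (gap over range 0.701) and 3.85 against 1.19 in the next male (0.827), and at Kcnb2 intron region 2, with 1.11 against 0.431 (0.732) and 1.12 against 0.542 (0.684). CAST was the highest at Kcnab1 intron region 1, with 2.27 against 0.884 in females (0.689) and 3.64 against 0.783 in males (0.830). In these 3 regions both sexes of the strain stood apart. The AJ male was the highest male at Kcnh8 intron region 2, with 1.62 against 0.466 (0.782). The 129 female was the highest female at the Kcnh2 start, with 2.00 against 1.34 (0.572), at Kcnma1 start region 2, with 2.22 against 1.29 (0.680), and at Kcnn1 start region 2, with 3.64 against 2.26 (0.531). Of the 16 samples, the 129 female also held the highest sums at beta cell (21.5), glial and neuronal (3.47) and mesenchymal markers (2.05), and their part in these 3 values was not tested.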

How the results depend on the processing

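Counts of Kcn regions were recomputed under each alternative. Against 101 regions with a strain effect, 64 passed with the deposited mean signal and 66 (of 124 tested) with the stricter peak lists, where fewer regions were tested. Regions that set any 1 strain apart numbered 106, with 163 without centring and 69 with the stricter lists. By strain, no centring gave 0 for 129, B6, NOD and NZO, 105 for CAST, 122 for PWK and 8 for WSB; against 9, 4, 7, 12, 61, 25 and 14. Centring within GC bins gave 14 for 129, 7 for B6, 11 for NOD and 21 for NZO. The mean signal gave 4 for 129, 5 for AJ (18 before), 2 for B6, 38 for CAST, 2 for NOD and 7 for NZO. Regions called in at least 12 samples gave 14 for 129, 31 for AJ, 10 for B6, 20 for NOD and 39 for PWK, out of 372. The stricter lists gave 38 for CAST, 6 for NZO and 8 for WSB. NOD gave 13 with a pseudocount of 10, 12 with limma's trend and robust options and 14 with adjustment over the 8 contrasts together, which gave 7 for B6. The class effect was called at 1 region without centring and the sex effect at 0 under every alternative. Start sites were called in all samples for 31 genes with the stricter lists, against 42. Regions called in 1 strain only were 49 with the stricter lists, 43 with equal numbers of peaks and 165 from the strain lists, against 74.

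With each sample left out in turn, the ranges were 42 to 149 for strain, 44 to 163 for any 1 strain, 0 to 22 for 129, 0 to 58 for AJ, 0 to 14 for B6, 12 to 78 for CAST, 0 to 30 for NOD, 0 to 58 for NZO, 10 to 39 for PWK, 2 to 22 for WSB, 42 to 44 for start-site genes and 85 to 297 for regions called in 1 strain, where fewer samples then need a call. For sex and class they were 0 to 0. Strain counts were lowest without 1 CAST sample, and those of 129, AJ, B6, NOD and NZO reached 0 without 1 of their own samples, which leaves 1 that is assumed to vary like the others.

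Female and male share replicate numbers across strains, so the sex term is the replicate block; without it 115 regions had a strain effect, and the class effect has no such block. Over named regions, 1024 repeated results kept their side of the threshold, 36 gained it, 108 lost it and 0 reversed. Cases in which a named region could not be tested are in none of these counts. The F test for strain has no direction, so its results could not reverse. The cause of these changes was not tested beyond the smaller sets named. Keeping touching peaks apart, an alternative chosen after the data were seen, also gave 101. Depth limits low signals: read totals are unknown, and a missing peak is no zero.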
